A study of Homo sapiens with 8 samples.

Results

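PVT1, MYC and CASC11 are neighbouring genes on the long arm of human chromosome 8, in band 8q24, and their RNAs were followed through the nuclear fractions of HAP1 cells, a near-haploid human leukemia line derived from KBM-7. The members were chosen by name: loci and transcripts with a GENCODE identifier were named by it, and loci assembled by StringTie (identifiers starting with MSTRG) took the name of whichever gene of equal orientation overlapped their span best, at a Jaccard index of at least 0.5. In this way 3 of the 62635 genes of the short-read table and 197 of the 301869 transcripts of the long-read table belonged to PVT1, MYC or CASC11, and 34 of those 197 transcripts were above 0 in at least 1 long-read library. Nuclei of untreated HAP1 cells were extracted with urea and detergent; the soluble part is the nucleoplasm fraction and the pellet is the chromatin fraction. RNA of both fractions was depleted of ribosomal RNA and sequenced as directional short reads, with 3 chromatin and 3 nucleoplasm libraries from 3 independent cultures, and chromatin RNA was also sequenced as Oxford Nanopore direct cDNA in 2 libraries, after enzymatic addition of poly(A) tails. ERCC standards, synthetic RNAs, were added in the same amount to every fraction before RNA extraction. The sample titles name the fraction, and the sample field for the fraction names chromatin for all 8 libraries, so the titles set the groups. HAP1 is 1 cancer cell line, so the levels below describe that line alone.

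MYC encodes a transcription factor that binds DNA as a partner of MAX and drives genes of ribosome production, nucleotide synthesis and the cell cycle. PVT1 is a long noncoding RNA (lncRNA) gene that starts downstream of MYC on the same strand, has many alternative isoforms and hosts several microRNAs, and the MYC and PVT1 region is often rearranged or amplified in cancer. CASC11 is an lncRNA gene on the opposite strand whose start lies within MYC. In hg38, MYC (MSTRG.32906) was listed at chr8:127735434-127742951 on the plus strand, a span of 7518 bases with 6 blocks of exons. PVT1 (MSTRG.32907) was listed at chr8:127794526-128187101 on the plus strand, a span of 392576 bases that begins 51574 bases after the end of MYC. CASC11 (MSTRG.32905) was listed at chr8:127686343-127738987 on the minus strand, and 3554 of its 52645 bases overlap MYC. No sequences are printed for this locus.

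Estimated read counts of the genes and ERCC standards summed to 38895027 to 43804918 in the chromatin libraries and 75737601 to 79523938 in the nucleoplasm libraries. These sums are not counts of sequenced reads. The short-read values are estimated read counts divided by a size factor for each library, called normalised read counts here. MALAT1, a nuclear-retained lncRNA, was 8.51-fold higher in chromatin, whereas the mRNA of GAPDH, a glycolytic enzyme, had a log2 fold change of -2.35 (both by limma, described below). BCR and ABL1, whose fusion is carried by KBM-7, were detected in every library, and the blood markers PTPRC, SPI1, GATA1 and CD3E were at 0 in every library. The size factors set the median gene near equality, with a median log2 fold change of -0.02. The ERCC standards themselves were higher in chromatin by 1.32 on the log2 scale of the normalised counts, and scaling the libraries to the same ERCC total moved the median gene to -1.33. Scaling to the same total count moved it to 0.44.

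PVT1 RNA was far higher in chromatin, MYC RNA was modestly higher in chromatin on the size-factor scale, and CASC11 RNA was near the limit of detection in both fractions. PVT1 had 8812, 10854 and 8245 normalised read counts in the chromatin libraries and 1022, 1059 and 1134 in the nucleoplasm libraries. Every chromatin library stood far above every nucleoplasm library. The groups also did not overlap in this direction for 44.6% of all tested genes, and in the opposite direction for 46.0%. The means were 9304 ± 1372 (SD, n = 3) and 1071 ± 57.2 (SD, n = 3). The log2 fold change was 3.11 with a standard error of 0.10, an 8.62-fold difference with an adjusted p of 1.71e-08 by limma. The limma model was fitted to log2(normalised count + 1) of 26066 genes that had at least 10 normalised counts in at least 3 libraries and spanned more than 200 bases, and p-values were adjusted over all of them by the Benjamini-Hochberg method. Chromatin-enriched RNA (cheRNA) is called here at an adjusted p under 0.05 and a more than 4-fold excess in chromatin. PVT1 met that call, as did 21.2% of all tested genes and 37.5% of the 3438 tested lncRNA genes, whereas 0.669% of lncRNA genes were more than 4-fold higher in the nucleoplasm. Scaled to the same ERCC total, its log2 fold change was 1.78, which is in the same direction and under 4-fold.

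MYC had 24022, 26535 and 24125 normalised read counts in the chromatin libraries. It had 15286, 16506 and 16502 in the nucleoplasm libraries. On this scale the groups did not overlap, which was also true, in this direction, of 44.6% of all tested genes, and in the opposite direction of 46.0%. The means were 24894 ± 1422 and 16098 ± 704 (SD, n = 3 each). The log2 fold change was 0.63 with a standard error of 0.06 (1.55-fold, adjusted p = 9.19e-06 by limma), below the 4-fold threshold, and it was -0.70, higher in the nucleoplasm, when the libraries were scaled to the same ERCC total. At any fold, 44.2% of tested genes were called higher in chromatin and 45.2% higher in the nucleoplasm.

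CASC11 had 11.6, 14.4 and 12.1 normalised read counts in the chromatin libraries, from 10, 12 and 11 reads. It had 13.2, 3.44 and 0 in the nucleoplasm libraries, from 15, 4 and 0 reads. Nucleoplasm replicate 1 lay inside the range of the chromatin libraries, and the groups overlapped. Exact Poisson 95% intervals ran from 4.80 to 18.4 reads for chromatin replicate 1 and from 8.40 to 24.7 reads for nucleoplasm replicate 1, and from 0 to 3.69 reads for nucleoplasm replicate 3. By the one-sided rule of 3 counts, the count of 0 there allows up to 3 reads, or 2.53 normalised counts. These intervals cover counting error only, and they take the estimated counts as counted reads. The means were 12.7 ± 1.49 and 5.54 ± 6.83 (SD, n = 3 each), a ratio of means of 2.30. The log2 fold change of 1.78 (standard error 0.82) did not pass the test, with an adjusted p of 0.0685 by limma, and its size depends on the pseudocount because of the library at 0. Without nucleoplasm replicate 1 it was 2.70, with an adjusted p of 0.00393 by limma, and with the replicate number as a block in the fit the adjusted p was 0.038 by limma. Under edgeR's quasi-likelihood test on the recovered reads it was 1.22, with an adjusted p of 0.137.

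**Figure D1:**
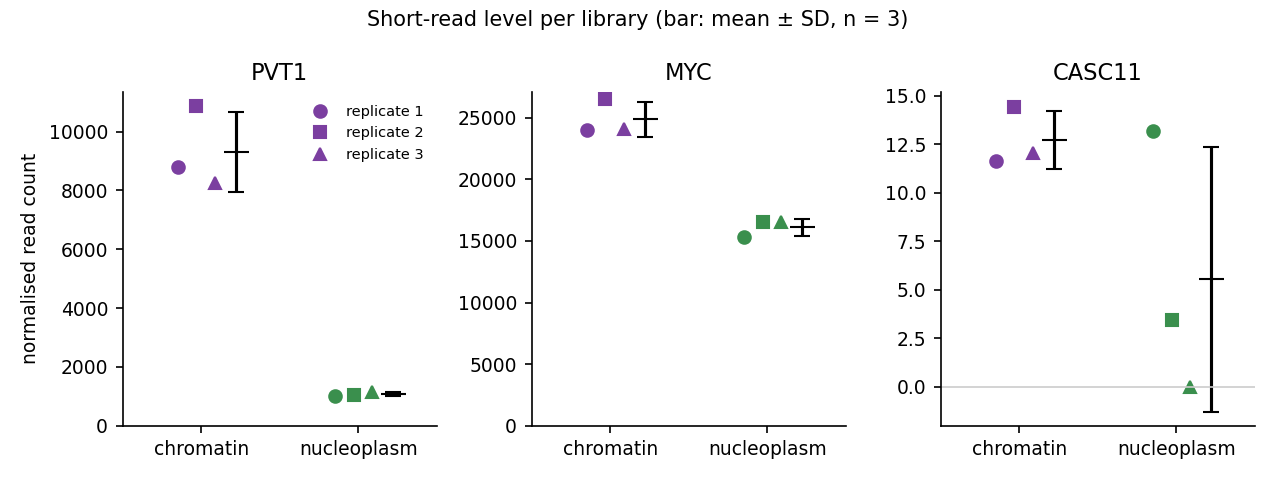
Normalised read counts (y axis, linear, a separate scale for each gene) of PVT1, MYC and CASC11 in the 3 chromatin (purple) and 3 nucleoplasm (green) short-read libraries. Symbols mark the replicate and bars the mean ± SD (n = 3). PVT1 sits between 8245 and 10854 in chromatin and between 1022 and 1134 in the nucleoplasm; MYC is separated by less on this scale, and its order turns when the libraries are scaled to the same ERCC total; CASC11 overlaps between fractions.

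The spread between libraries was larger than counting error for the abundant members. The coefficient of variation of PVT1 was 14.7% over the chromatin libraries, against a counting error of 1.05% to 1.15% for each, and 5.34% over the nucleoplasm libraries, against 2.73% to 2.93%. For MYC it was 5.71% in chromatin and 4.37% in the nucleoplasm, with counting errors of 0.673% to 0.758%. For CASC11 the counting error of each chromatin library, 28.9% to 31.6%, exceeded the 11.7% spread between them.

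Levels of different genes were compared per kilobase of GENCODE 44 exon sequence, which is 25431 bases for PVT1, 6109 for MYC and 5148 for CASC11. This length joins the exons of all isoforms of a gene. For PVT1, with many isoforms, it may exceed the length of its transcripts, which would lower its level per kb. MYC had a mean of 4075 normalised counts per kb in chromatin and 2635 in the nucleoplasm, and ranked at 140 and 714 among 12493 protein-coding genes. PVT1 had 366 per kb in chromatin and 42.1 in the nucleoplasm, and ranked at 248 and 774 among 3438 lncRNA genes. CASC11 had 2.47 and 1.08 per kb and ranked at 3396 and 3174 of the same lncRNA genes. The order was thus MYC, PVT1, CASC11 in both fractions, and no library of one gene reached the level of the next.

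If the standards are taken to mark equal amounts of each fraction, shares of the RNA of both nuclear fractions together can be given. From the group means, the chromatin fraction held 77.6% for PVT1, 38.1% for MYC and 50.9% for CASC11. RNA outside the nucleus is not counted in these shares, and that of CASC11 rests on 0 to 15 reads per library. The same calculation gave 77.4% for MALAT1 and 68.0% for NEAT1, lncRNAs of nuclear speckles and paraspeckles, and 7.27% for GAPDH and 8.43% for B2M, the light chain of MHC class I. PVT1 thus had a chromatin share within 1 percentage point of that of MALAT1, and MYC lay between the lncRNA and mRNA references.

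The ratio of a pair of genes within a library does not depend on how the libraries are scaled, apart from a pseudocount. A pseudocount of 1 was added to each normalised count before the log2, which matters for the low counts of CASC11. The log2 ratio of PVT1 to MYC, both as normalised counts not divided by length, was -1.45, -1.29 and -1.55 in the chromatin libraries and -3.90, -3.96 and -3.86 in the nucleoplasm libraries. All chromatin libraries lay above all nucleoplasm libraries. The ratio was higher in chromatin by 2.48 on the log2 scale (standard error 0.08), or 5.58-fold. An exact two-sided permutation test over the libraries gave p = 0.1, the smallest that 3 libraries against 3 allow, and 0.3 after Benjamini-Hochberg adjustment over the 3 pairs of genes compared. PVT1 was therefore shifted toward chromatin relative to MYC in every library under any scaling. The ratio of CASC11 to MYC differed by 1.15 (standard error 1.14; exact permutation p = 0.4, adjusted 0.4) and that of PVT1 to CASC11 by 1.33 (standard error 1.15; exact permutation p = 0.4, adjusted 0.4), and as no ratio could pass 0.05 with 3 libraries against 3, these p-values set none of the ratios apart. Both rest on the CASC11 reads of nucleoplasm replicates 1 and 3: the difference for CASC11 to MYC was 2.105 without replicate 1 and 0.14 without replicate 3, and that for PVT1 to CASC11 was 0.38 and 2.37. Both also depended on the pseudocount. With pseudocounts of 0.5 and 5, CASC11 to MYC differed by 1.51 and 0.32. With the same pseudocounts, PVT1 to CASC11 differed by 0.98 and 2.15.

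Both PVT1 and MYC sat on the chromatin side of their gene classes. PVT1 had a higher log2 fold change than 84.3% of the tested lncRNA genes, whose median was 1.53, and 540 lncRNA genes were higher. MYC had a higher log2 fold change than 80.3% of the tested protein-coding genes, whose median was -0.39, although its own value turned negative under scaling to the same ERCC total. Only 3.94% of protein-coding genes were called cheRNA and 5.72% were called more than 4-fold higher in the nucleoplasm. CASC11 lay at 57.1% of the lncRNA genes. Under scaling to the same ERCC total the medians became 0.26 for lncRNA genes and -1.71 for protein-coding genes.

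**Figure D2:**
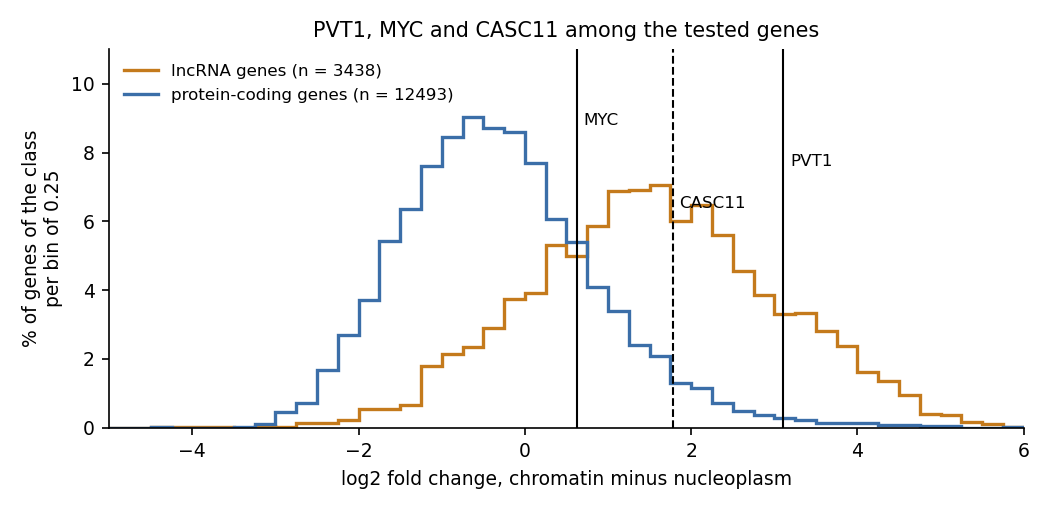
Distribution of the log2 fold change (x axis, chromatin minus nucleoplasm, size-factor scale) over 3438 lncRNA genes (orange) and 12493 protein-coding genes (blue), as the percentage of each class per bin (y axis). Vertical lines mark MYC at 0.63, CASC11 at 1.78 (dashed, not past the test) and PVT1 at 3.11; MYC and PVT1 lie right of the medians of their classes, -0.39 and 1.53, and MYC moves to -0.70 when the libraries are scaled to the same ERCC total.

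The genes closest to PVT1 in level over the 6 short-read libraries, by Euclidean distance of log2(normalised count + 1) among 16339 candidate genes, were the protein-coding genes GARNL3 (distance 0.14), TBCK (0.25) and CACNB2 (0.28), with log2 fold changes of 3.03, 3.19 and 3.14. CACNB2 encodes a subunit of voltage-gated calcium channels. Those closest to MYC were UBE2D3 (0.29), a ubiquitin-conjugating enzyme, PPP6R3 (0.29), a phosphatase subunit, and TLE3 (0.31), a transcriptional corepressor, with log2 fold changes of 0.46, 0.82 and 0.42. Those closest to CASC11 were LPAL2, MIOX and SCN11A, at distances of 1.03, 1.19 and 1.205. The measure uses counts not divided by length and was chosen for likeness, so it is a description.

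The locus held little other signal in short reads. The short-read table lists 10 loci in the window from ENSG00000286266, upstream of CASC11 in genome position, to RN7SKP226, beyond the end of PVT1: the 3 members and 7 others. Of the 7, ENSG00000286266, LINC02912 and ENSG00000278275 were at 0 in all 6 libraries, and ENSG00000286010, MIR1205, MIR1208 and RN7SKP226 had at most 3 reads in any library. None of the 7 was tested. MIR1205 and MIR1208 are microRNA genes inside PVT1, and no locus was matched to MIR1204, MIR1206 or MIR1207 in the short-read table. Their listed spans of 63 and 73 bases hold a hairpin, not the host transcript.

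Farther neighbours on 8q24 gave a mixed picture. Of 8 listed genes, 5 were tested. ASAP1, an Arf GTPase-activating protein, was higher in chromatin by 1.33 and TRIB1, a pseudokinase, by 0.30, and both lost that excess under scaling to the same ERCC total (0.00 and -1.02). LRATD2 (-0.52), NSMCE2 (-0.70), a SUMO ligase of the SMC5/6 complex, and CYRIB (-0.79) were higher in the nucleoplasm, and their values stayed negative under all 3 scalings. None of the 5 passed the 4-fold threshold in either direction, against 21.2% and 8.47% of all tested genes. GSDMC, CCDC26 and LINC00824 did not reach the filter on low values. PVT1 was the gene with the largest log2 fold change among these and the members.

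Of the mRNAs of genes that work with MYC, more were higher in the nucleoplasm than in chromatin. Of 76 genes in 5 lists (MAX network, cofactors, protein turnover, regulators of the MYC promoter or mRNA, and target genes), 68 were tested and 8 had no matched locus. CIP2A, which protects MYC protein from dephosphorylation, was the 1 gene called cheRNA, at a log2 fold change of 2.87. The 7 genes called more than 4-fold higher in the nucleoplasm were CNBP, CDK4, LDHA, PUF60, RUVBL2, FBL and BOP1, from -2.27 to -2.05. Over all tested genes 21.2% were called higher in chromatin and 8.47% higher in the nucleoplasm, and over protein-coding genes 3.94% and 5.72%. The 7 became 36 under scaling to the same ERCC total and 0 under scaling to the same total. A further 15 were higher in chromatin and 42 higher in the nucleoplasm at under 4-fold, and MXD1, MYCN and USP36 did not pass the test. At any fold, 16 of the 68 were thus higher in chromatin and 49 in the nucleoplasm, against 44.2% and 45.2% of all tested genes. Protein-coding genes as a class also had a median below 0, so the lean of these lists is in part that of their class. The median of the 68 was -0.74, against -0.39 for all tested protein-coding genes and -0.02 for all tested genes. MYC itself had a higher log2 fold change than 58 of the 68, and none of the 68 reached the value of PVT1. Under scaling to the same ERCC total, 2 of the 68, CIP2A (1.55) and EP400 (0.04), remained above 0, and under scaling to the same total 26 were above 0.

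In the MAX network (12 of 12 tested, median -0.18, or 0.29 under scaling to the same total), 4 genes were higher in chromatin, 6 were higher in the nucleoplasm and 2 did not pass. At any fold, 44.2% of all tested genes were called higher in chromatin and 45.2% in the nucleoplasm, so these counts do not set the network apart. MGA (1.15), which represses MYC sites with MAX, MLXIPL (0.95), a glucose-responsive factor, and MAX (0.27), the obligate partner, had the highest log2 fold changes, and all 3 turned negative under ERCC scaling. MLX (-1.21), MXI1 (-1.16) and MXD4 (-0.84), members of the same network, had the lowest. Of the cofactors (14 of 15 tested, median -0.68), EP400 (1.37) and BPTF (0.46), chromatin remodelling proteins, were highest, and BPTF turned negative under ERCC scaling. RUVBL2 (-2.11), RUVBL1 (-1.72), ATPases of the TIP60 complex, and SMARCB1 (-1.51), a SWI/SNF subunit, were lowest.

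Of the genes of MYC protein turnover (13 of 14 tested, median -0.55), CIP2A (2.87) was followed by FBXW7 (1.13) and SKP2 (0.25), ubiquitin ligase subunits that mark MYC for degradation, and these last 2 turned negative under ERCC scaling. PPP2R5A (-1.44), a subunit of the phosphatase PP2A, and STUB1 (-1.41), a ubiquitin ligase, were among the lowest. Of the regulators of the MYC promoter or mRNA (9 of 10 tested, median -0.99), FUBP1 (1.04), IGF2BP2 (1.01) and IGF2BP3 (0.83) were highest and turned negative under ERCC scaling. CNBP (-2.27), PUF60 (-2.17) and HNRNPK (-1.47), nucleic acid binding proteins, were lowest. Of the target genes (20 of 25 tested, median -0.93), TERT (1.11), the telomerase catalytic subunit, and NOP56 (0.95), a nucleolar protein, were the only 2 higher in chromatin, and both turned negative under ERCC scaling. DDX18 followed at -0.12. For comparison, 44.2% of all tested genes were called higher in chromatin at any fold, and the median of all tested protein-coding genes was -0.39. CDK4 (-2.21), LDHA (-2.17) and FBL (-2.08), a cell cycle kinase, lactate dehydrogenase and the rRNA methyltransferase fibrillarin, were lowest. All values in this and the preceding paragraph are log2 fold changes on the size-factor scale, by limma.

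**Figure D3:**
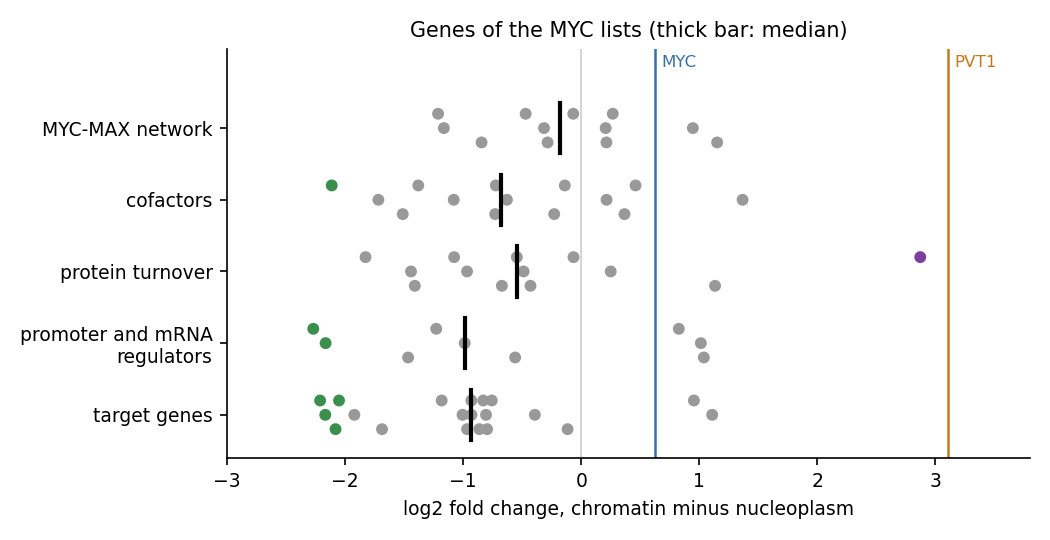
Log2 fold changes (x axis, chromatin minus nucleoplasm, size-factor scale) of the 68 tested genes of the 5 MYC lists (rows). Purple marks the call of cheRNA, green the call of more than 4-fold higher in the nucleoplasm, grey all others, and thick bars the median of each list. CIP2A is the purple point, all 5 medians lie below 0 (that of the MAX network is 0.29 under scaling to the same total), and the lines mark MYC at 0.63 (-0.70 under scaling to the same ERCC total) and PVT1 at 3.11.

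The long reads gave the isoforms of these genes in chromatin, in TPM, a StringTie abundance that adds up to 1000000 over the transcripts of a library and keeps no record of depth. With 2 libraries of 1 group there was no comparison to test. For PVT1, 182 transcripts were listed, 176 with a GENCODE identifier and 6 assembled ones, and 31 were above 0 in at least 1 library. Of these, 14 were above 0 in both libraries, 5 in replicate 1 alone and 12 in replicate 2 alone. The summed level of PVT1 was 36.0 TPM in replicate 1 and 37.1 TPM in replicate 2. Of this sum, GENCODE isoforms held 60.7% and 56.7%.

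No PVT1 isoform dominated. The assembled isoform MSTRG.78403.114, which began 96732 bases from the PVT1 start and spanned 8802 bases, was highest in replicate 1, at 5.29 and 3.07 TPM. The assembled isoform MSTRG.78403.146, which began 228346 bases from the start, was highest in replicate 2, at 2.62 and 6.70 TPM. The highest isoform held 14.7% of the PVT1 sum in replicate 1 and 18.1% in replicate 2. MSTRG.78403.116 had 5.06 and 3.67 TPM and began 116846 bases from the start. Thus the 3 highest assembled isoforms all began deep inside the gene.

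Among the GENCODE isoforms, ENST00000656168.1, which began near the PVT1 start and spanned 26946 bases, had 3.84 and 3.73 TPM. ENST00000523427.2, from the start region and spanning 96691 bases, had 2.92 and 4.03 TPM. Of the GENCODE isoforms named here, these differed least between the libraries. ENST00000653853.1 had 3.67 and 1.56 TPM and ENST00000660438.1 had 3.33 and 0.654 TPM, both higher in replicate 1. ENST00000664265.1 had 0.997 and 2.35 TPM, and the assembled MSTRG.78403.1, which ran 309630 bases, had 1.17 and 2.62 TPM, both higher in replicate 2. ENST00000667305.1 had 1.197 and 0.653 TPM.

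Isoforms that began within 2000 bases of the PVT1 start held 44.03% and 49.1% of the sum, from 17 transcripts, of which 7 were above 0 in both libraries. The remainder began further inside. At the other end, 95 listed isoforms shared the same 3′ end, 307387 bases from the start, and 11 of them were above 0, with 26.6% and 15.0% of the PVT1 sum. The end at 138194 bases was used by 6 transcripts above 0 and the end at 202155 bases by 5. The distal end of the gene, 392575 bases from the start, was reached by 1 transcript above 0, listed at 0 in replicate 1 and 0.602 TPM in replicate 2.

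Most of the long-read signal within the PVT1 span was outside PVT1 isoforms. Transcripts on either strand, with at least 50% of their own span inside that of PVT1, summed to 330 and 306 TPM over 55 transcripts above 0, of which 31 were above 0 in both libraries. Isoforms of PVT1 made up 6.62% and 6.87% (GENCODE) plus 4.28% and 5.26% (assembled) of this. Assembled transcripts on the PVT1 strand that matched no gene held 55.1% and 57.6%, and those on the opposite strand held 31.6% and 28.2%.

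A short intronic locus accounted for most of that signal. It was listed at chr8:128155965-128156930, a length of 966 bases that begins 361439 bases from the PVT1 start, with 0 bases in PVT1 exons and 546 bases from the nearest exon. MSTRG.78418.1, on the plus strand, had 150 and 151 TPM, and MSTRG.78418.2, also plus, had 26.8 and 22.7 TPM. MSTRG.78419.1, on the minus strand, had 45.2 and 41.1 TPM. Starts of the 3 transcripts lay within 6 bases of each other and ends within 7 bases, and the minus strand held 20.3% and 19.1% of the locus. The locus summed to 222 and 215 TPM, 67.3% and 70.3% of all TPM within the PVT1 span, with sums that differed little between the libraries. The reference sequence of the locus aligned to chromosome 8 at 1 place, over all 966 bases. Copies on other chromosomes are not covered by that alignment. The short-read table lists no separate locus there.

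Transcripts assembled antisense to PVT1 also ended at its start, although the strand of the reads behind them was not established. MSTRG.78404.1, on the minus strand, covered 104524 bases up to the first base of PVT1, at 16.2 and 18.8 TPM. MSTRG.78404.2 covered 195233 bases up to nearly the same position, at 8.93 and 4.98 TPM. Over the whole span, opposite-strand transcripts made up 33.9% and 29.7% of the TPM, below the median of 45.2% over 361 lncRNA genes with at least 50 TPM, 64.0% of which were at or above PVT1. Of the 16 assembled transcripts in the span above 0 in both libraries, 1 was followed in the genome by at least 12 A among the 20 bases after its 3′ end, as was 0 of 15 with a GENCODE identifier, against 2.62% and 3.89% of such transcripts on chromosome 8.

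**Figure D4:**
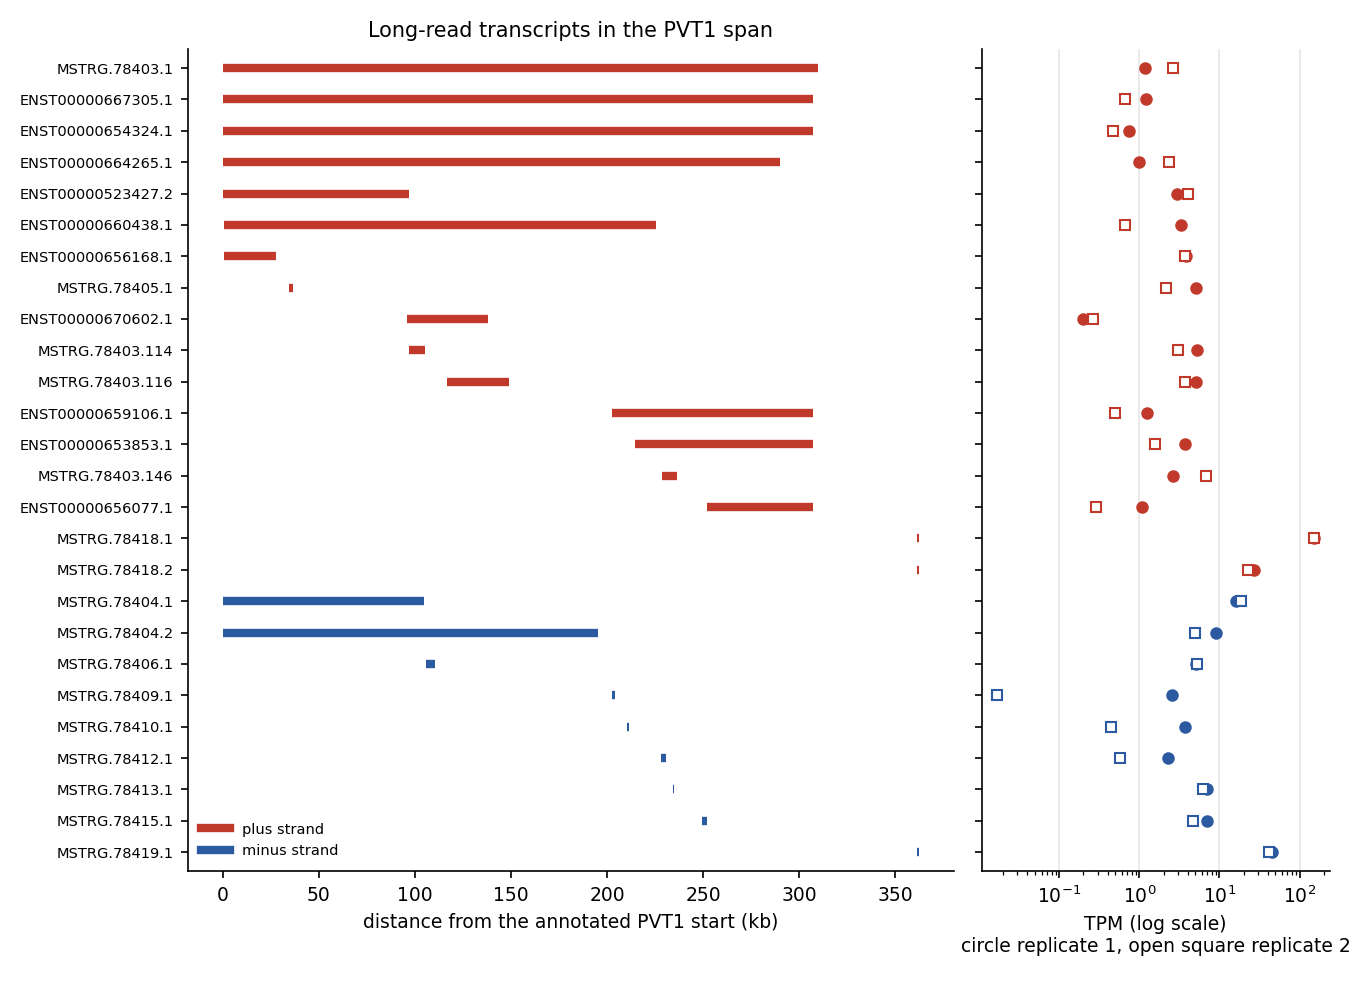
Left, transcripts above 0 in both long-read libraries that match PVT1 or no gene and lie in the PVT1 span, drawn from start to end by distance from the annotated PVT1 start (kb), red for the plus strand and blue for the minus strand. Right, their levels in TPM (log axis), circles for replicate 1 and open squares for replicate 2; the short intronic transcripts MSTRG.78418.1, MSTRG.78418.2 and MSTRG.78419.1, 361439 bases from the start, stand above the PVT1 isoforms in both libraries.

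MYC was carried by 1 long-read isoform. Of 10 listed MYC transcripts, ENST00000259523.10 had 142 TPM in replicate 1 and 54.0 TPM in replicate 2, and ENST00000641036.1 was listed at 1.1e-05 and 1e-06 TPM. The other 8 were at 0 in both. Of 5 listed CASC11 transcripts, ENST00000672942.1, at chr8:127730157-127739018, had 53.0 and 18.9 TPM and the others were at 0.

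Another transcript was higher than both. MSTRG.78401.4, assembled on the minus strand at chr8:127730157-127740960, had 434 and 158 TPM and ranked at 474 among all long-read transcripts by mean TPM. It shared the 3′ end of the CASC11 isoform, its 5′ end lay in the last of the 6 exon blocks of MYC, and it covered 5527 bases or 73.5% of the MYC span. It was not matched to CASC11 by the naming rule. It stood at 3.06 and 2.92 times the MYC isoform, a ratio that changed little between libraries although all 3 transcripts were higher in replicate 1, by 2.63-fold for MYC, 2.81-fold for CASC11 and 2.76-fold for MSTRG.78401.4. Over 1798 transcripts of 50 to 500 mean TPM, the median log2 ratio of replicate 1 to replicate 2 was -0.21 with an SD of 1.26, and 4.95%, 4.45% and 4.67% of them had a higher ratio than these 3.

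Long reads placed most of the TPM at MYC on the minus strand, whereas short reads of CASC11 were few beside those of MYC. The shares below compare unlike sets. MSTRG.78401.4 runs 1973 bases past the CASC11 start, and the short-read table lists no separate locus for it. Over transcripts with at least 50% of their own span inside that of MYC, MSTRG.78401.4 on the minus strand held 75.4% and 74.5% of the long-read TPM. That rule leaves out the CASC11 isoform, which covers 3585 bases, or 47.7%, of the MYC span. Among 3255 protein-coding genes with at least 50 TPM in the span, the median opposite-strand share by the same rule was 35.4%, and 207 genes (6.36%) were at or above MYC. In the directional short reads, CASC11 held 0.0485% of the CASC11 and MYC reads in chromatin replicate 1 (Wilson 95% interval 0.0263% to 0.0892%), 0.0543% in replicate 2 and a share between these in replicate 3. In the nucleoplasm it was 0.0860%, 0.0209% and 0% (0 of 19533 reads; the Wilson 95% interval reaches 0.0197%, and the one-sided rule of 3 counts allows up to 0.0154%). Direct cDNA reads carry no strand of their own, and whether the deposited long-read table was made before or after the reads were assigned a strand computationally is not stated. Of 92 ERCC standards, each made in 1 strand, 47 were above 0 and 6 had a transcript listed on the minus strand. Those minus-strand transcripts held 54.7% to 100% of the TPM of their own standards in replicate 1 and 22.3% to 100% in replicate 2. For ERCC-00092, the plus strand had 12.9 and 6.12 TPM and the minus strand 19.9 and 7.62 TPM. Of all ERCC TPM, the minus-strand transcripts held 1.01% and 0.835%. That share is weighted by the abundance of the standards and is not a share of reads on the wrong strand. The part of strand assignment in the MYC and PVT1 values was not tested.

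**Figure D5:**
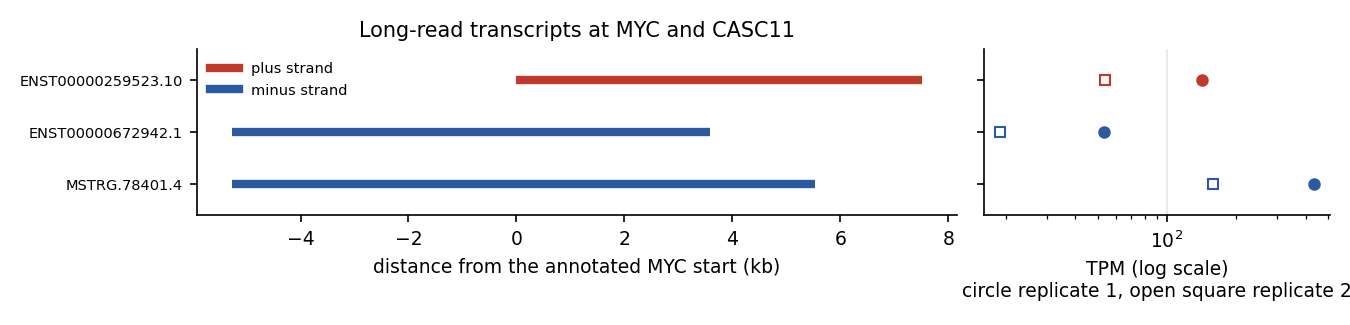
Left, the MYC isoform ENST00000259523.10 (plus strand, red), the CASC11 isoform ENST00000672942.1 and the assembled transcript MSTRG.78401.4 (minus strand, blue) by distance from the annotated MYC start (kb). Right, their levels in TPM (log axis), circles for replicate 1 and open squares for replicate 2; MSTRG.78401.4 is highest, at 434 and 158 TPM, and each transcript is higher in replicate 1.

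The ratio of PVT1 to MYC also depended on the platform. In long reads of chromatin it was 0.253 in replicate 1 and 0.686 in replicate 2 on the TPM scale, and in short reads of chromatin it was 0.0898 per kb of exon, against 0.0160 in the nucleoplasm. The ratio of CASC11 to MYC was 0.373 and 0.349 in long reads, against 0.000606 per kb in short reads of chromatin. Units, the lengths used and depth differ between the tables, so these values are set side by side without a test.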

How the data were processed

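HAP1 chromatin and nucleoplasm RNA was sequenced in 6 short-read libraries of 50-base single-end directional reads, and chromatin RNA in 2 long-read libraries. The authors aligned short reads to hg38 with HISAT2 2.1.0, assembled them with StringTie guided by GENCODE 35, and deposited a signal per gene: estimated counts divided by a DESeq2 size factor. Whole numbers, taken as reads, were recovered in 100% of the values (tolerance 0.001), and the count tests run on them were alternatives. The deposited long-read TPM values were made by the authors with minimap2 and StringTie. Their names were taken here from GENCODE 44.

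Fractions were compared on log2(normalised count + 1) by limma 3.58.1 in R 4.3.3, letting the variance follow a trend with the mean, in place of the study's DESeq2 test on counts. edgeR 4.0.16 and DESeq2 1.42.0 were alternatives, with other pseudocounts (0.5 and 5), filters, scalings, locus assignments and libraries left out. On the recovered reads edgeR called 5675 genes more than 4-fold higher in chromatin and 2167 in the nucleoplasm. Permutation tests used scipy 1.17.1. The limma script was tested on simulated data. The text names the members, window loci that passed the filter, the 3 highest and 3 lowest genes of each list (2 of these are not reported here) and genes counted at 5 or fewer, the 10 highest PVT1 isoforms and the 3 genes nearest to each member; the unfiltered window loci, MSTRG.78401.4, the antisense transcripts and the intronic locus were named after their values were seen. The members and lists were chosen with earlier results of these data known.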

Additional observations from a re-analysis of the deposited data

How the results depend on the processing

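PVT1 kept its direction and stayed past adjusted p 0.05 under all 16 alternatives (log2 fold change 1.78 to 3.57); MYC did so under 15 of 16. With libraries scaled to the same ERCC total, MYC turned to -0.70, and the counts of calls became 3107 genes higher in chromatin and 8968 in the nucleoplasm, against 5531 and 2208; in the window 0 loci and in the MYC lists 0 genes were then called higher in chromatin, and 36 list genes higher in the nucleoplasm, against 1, 1 and 7. Scaled to the same total, they were 6672 and 999, with 2 window loci in chromatin and 0 list genes in the nucleoplasm. A mean of at least 50 normalised counts left 2957 genes higher in chromatin and gave no value for CASC11. CASC11 passed the threshold with a pseudocount of 5 (0.95), with the same total (2.12) and with a replicate block (1.78, adjusted p = 0.038 by limma). Leaving out a library moved CASC11 between 0.78 and 2.70 and the window loci called higher in chromatin between 1 and 2, the higher values without nucleoplasm replicate 1 and the lowest CASC11 value without nucleoplasm replicate 3; the causes were not tested. Both fractions came from 3 cultures, but the labels do not say that a replicate number marks a culture. Deviations of same-numbered libraries correlated at 0.087, 0.053 and 0.063 across genes, although every chromatin library correlated best with the nucleoplasm library of its own number. The replicate block gave 5540 and 2218 genes. The GENCODE share of PVT1 TPM, 58.7% as the mean of both libraries, was 47.2% over isoforms of at least 1 TPM, 9.90% over all same-strand transcripts in the span and 6.75% over either strand; with either strand and at least 50% of the transcript inside the span (an alternative chosen after seeing the data), the shares were 6.75% for PVT1, 25.1% for MYC and 10.8% for CASC11. CASC11 values are limited by 0 to 15 reads per library, and TPM gives no depth.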
